A study of Mus musculus with 12 samples.

Results

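The genes described here are the mouse sialic acid-binding immunoglobulin-like lectins (Siglecs) listed by symbol: Siglecf, Siglec1, Siglece, Siglecg, Siglech, Cd33 and Cd22. All 7 were found by their exact symbol among the 40847 genes of the count table; the rule is a list of symbols and applies no threshold to a measured value. The cells were fetal liver alveolar-like macrophages, cultured macrophages grown from mouse fetal liver as a stand-in for the macrophages of the lung air spaces. All 12 mRNA libraries came from cells kept in 30 ng/ml mouse GM-CSF, and they form 4 groups of 3. The untreated group had GM-CSF alone. The TGFβ group also had 20 ng/ml recombinant human TGFβ1. The Pam3 group had 25 ng/ml Pam3CSK4, a synthetic lipopeptide that activates Toll-like receptor 2, for 18 h, and the Pam3 plus TGFβ group had both agents. The mouse strain and whether the 3 libraries of a group came from separate cultures are not given in the labels, so p-values measure the spread between these libraries, which may be technical.

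Siglecs are cell-surface receptors whose outermost immunoglobulin domain binds sialic acids, the sugars that cap many glycans on the cell's own surface and on its neighbours. Siglec-F, Siglec-E, Siglec-G and CD22 carry inhibitory motifs in their tails that recruit the phosphatase SHP-1, encoded by Ptpn6, and so dampen signalling. Siglec-H has no such motif and pairs with the adaptor DAP12, encoded by Tyrobp. Sialoadhesin, the product of Siglec1, is an adhesion receptor with a long stack of immunoglobulin domains and no inhibitory motif, and it is widely used as a readout of type I interferon. In the mouse lung, Siglec-F marks alveolar macrophages and eosinophils. Siglec-H marks plasmacytoid dendritic cells, and CD22 and Siglec-G are known mainly from B cells. The series asks how TGFβ alters the macrophages' type I interferon response to a Toll-like receptor 2 ligand, so Siglecf stands for the alveolar macrophage state and Siglec1 for the interferon side.

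Libraries held 34036650 to 44374115 assigned reads. Values below are counts per 1000000 reads (CPM) after scaling for library composition. Within every group the libraries differed by more than counting noise, with a chi-square per degree of freedom of 9.99 to 220 between pairs. Untreated replicate 3, TGFβ replicate 2 and Pam3 replicate 1 stood apart from the others of their group (133 to 220 against at most 24.6 between the remaining pair); leaving out any of these, or any other single library, ended no call of a Siglec. A gene was called changed when its adjusted p was under 0.05 over the 14749 genes with enough reads to test. The 5 macrophage markers Adgre1, Csf1r, Fcgr1, Mertk and Cd68 were abundant in every library, with a summed level of 2339.4 to 2618.7 CPM in the untreated group, 1815.7 to 1847.6 CPM with TGFβ, 2732.9 to 2813.4 CPM with Pam3 and 2489.9 to 2512.8 CPM with both. The part of this shift in the results below was not tested. The 5 B cell markers summed to at most 0.445 CPM and the 4 eosinophil markers to at most 0.133 CPM, with Pax5, Epx and Il5ra at 0 counts in every library. The 5 neutrophil markers summed to 0.289 to 1.61 CPM and Mpo had no count. Of cell types that fetal liver holds, the 4 erythroid markers summed to at most 0.543 CPM. Among the 4 hepatocyte markers Ttr had no count, Alb and Apoa1 had at most 6 counts in a library, and Afp lay at 5.7 to 5.81 CPM untreated, 5.63 to 6.25 with TGFβ, 6.4 to 7.7 with Pam3 and 8.41 to 10.1 with both agents. Of the plasmacytoid dendritic cell list, Klk1 and Ly6d had no count, while Tcf4, which other cells also use, lay at 15.3 to 19.5 CPM untreated, 20.0 to 21.3 with TGFβ, 21.3 to 25.2 with Pam3 and 37.2 to 38.6 with both agents. Of the microglia list, Sall1 had no count and P2ry12 lay at 29.7 to 32.7 CPM untreated, 21.0 to 22.9 with TGFβ, 22.3 to 26.3 with Pam3 and 18.0 to 18.5 with both. Tcf4 and Afp were thus highest in the group where Siglec1 and Siglece were highest, and P2ry12 was lowest there. The 5 macrophage markers did not move as one. Fcgr1 was highest with both agents, at 167.8 to 176.8 CPM. Adgre1 lay at 289.8 to 312.5 CPM untreated, 135.9 to 158.3 with TGFβ, 469.5 to 490.4 with Pam3 and 254.7 to 282.7 with both. Cd68 was highest untreated, at 810.4 to 928.9 CPM. With both agents Csf1r and Mertk overlapped another group. The part of all these genes in the results for the Siglecs was not tested. In bulk RNA, fewer cells expressing a gene and less RNA of it per cell cannot be told apart.

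Of the 7 Siglecs, 6 had enough reads to be tested, and 5 were well expressed. Pam3 without TGFβ changed 4 of the 6, against 18.3% of all genes tested. Siglece and Cd33 were higher, against 9.62% of all genes, and Siglecf and Cd22 lower, against 8.66%. Pam3 in the presence of TGFβ changed 4 of the 6, against 38.5% of all genes. Here Siglec1 and Siglece were higher (20.4% of all genes) and Siglecf and Cd22 lower (18.1%). TGFβ without Pam3 raised 2 of the 6, Siglecf and Siglece, and lowered none, against 51.0% of all genes called, 22.9% higher and 28.1% lower. TGFβ in the presence of Pam3 changed 4 of the 6, against 45.3% of all genes, with Siglecf, Siglece and Siglec1 higher (21.5% of all genes) and Cd33 lower (23.8%). The Pam3 response itself differed between cells with and without TGFβ for 4 of the 6, against 15.9% of all genes. It was higher with TGFβ for Siglec1 (10.3% of all genes) and lower for Siglece, Siglecf and Cd33 (5.67%). Each group enters more than 1 of these comparisons, so their counts are not independent of each other. With upper-quartile scaling the genes called for Pam3 with TGFβ split into 2477 higher and 3489 lower, against 3008 and 2670, and those called for the difference between Pam3 responses into 1255 and 1097, against 1516 and 836; the members' calls and directions were the same. In the plot of CPM by library, 5 of the 6 genes show different patterns over the 4 conditions, and Siglecg lies near the limit of detection.

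**Figure D1:**
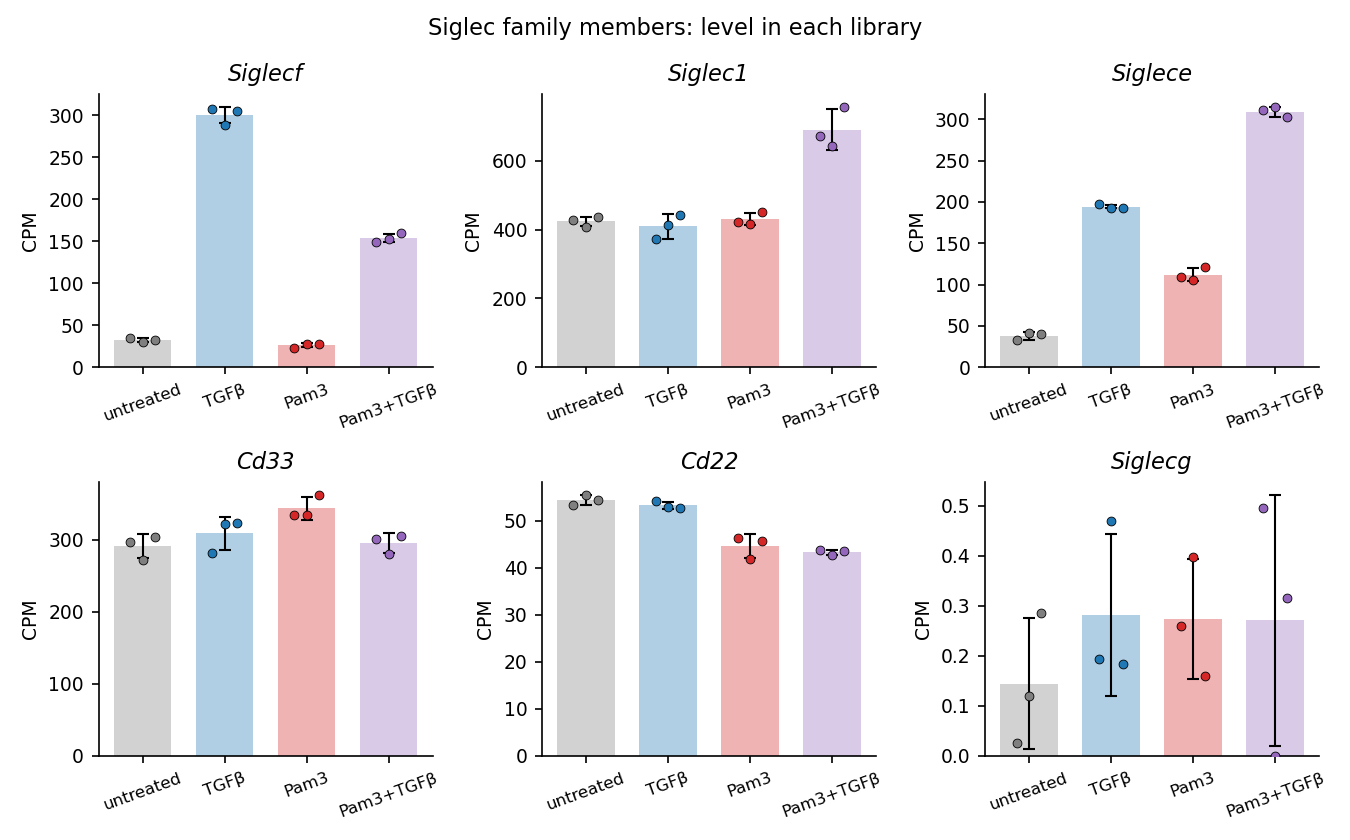
Level of each tested Siglec in counts per 1000000 reads (CPM; vertical axes, each from 0) in the 4 groups; points are the 3 libraries of a group, bars the mean and whiskers the SD. Siglecf was highest with TGFβ alone (288.9 to 307.1 CPM), Siglec1 with both agents (643.5 to 758.0 CPM) and Siglece with both agents (302.7 to 314.4 CPM).

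Siglecf, the alveolar macrophage marker, rose strongly with TGFβ and was lower again when Pam3 was added. It lies on the plus strand of chromosome 7 from 43000765 to 43008955 (GRCm39). Siglecf stood at 34.3, 30.1 and 32.0 CPM in the untreated libraries and at 307.1, 288.9 and 305.1 CPM with TGFβ. It was measured at 23.4, 27.1 and 27.5 CPM with Pam3, and at 149.6, 152.2 and 159.4 CPM with both agents. No library of one group overlapped another: Pam3 alone was lowest, then untreated, then both agents, and TGFβ alone highest. TGFβ raised Siglecf 9.35-fold without Pam3 (log2 difference 3.22, SE 0.0624, adjusted p = 3.74e-23) and 5.91-fold with Pam3 (log2 difference 2.56, SE 0.0619, adjusted p = 3.65e-21).

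Pam3 lowered Siglecf in both backgrounds. The fall was 0.31 on the log2 scale without TGFβ (−0.31, SE 0.0618, adjusted p = 0.000729) and 1.95-fold with TGFβ (log2 difference −0.97, SE 0.0567, adjusted p = 2.82e-13). The difference between these responses was itself called, at −0.66 on the log2 scale (95% confidence interval −0.83 to −0.49, adjusted p = 1.67e-06), so Pam3 took a larger share of Siglecf away in the TGFβ-treated cells. In the cells given both agents Siglecf nevertheless remained above its untreated level in every library.

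Among 18 other genes used to describe alveolar macrophage identity, Siglecf was one of those that followed TGFβ upward. TGFβ without Pam3 raised 11 of the 18 and lowered 7, with a median log2 difference of 0.46 against −0.01 for all genes tested, of which 22.9% were called higher and 28.1% lower. Siglecf, at 3.22, lay above 15 of the 18. The list did not move as one: Krt79, a keratin used as an alveolar macrophage marker, was highest at a log2 difference of 8.44, whereas Fabp4, a fatty acid-binding protein, was lowest at −7.86. The scavenger receptor Marco fell from 2146.7 ± 266.1 to 123.3 ± 6.27 CPM (SD, n = 3; log2 difference −4.12, adjusted p = 7.11e-23). Pam3 in the presence of TGFβ lowered 11 of the 18 and raised 5, with a median of −0.2 against −0.02 for all genes; 18.1% of all genes were called lower and 20.4% higher, so the 5 raised are near that share. The ribonuclease genes Ear1 and Ear2, like Siglecf, rose with TGFβ in both backgrounds and fell with Pam3 in TGFβ-treated cells. Without TGFβ, Pam3 lowered Ear2 (−0.3, adjusted p = 0.000129), and the Ear1 difference was −0.02 (adjusted p = 0.944). Ear1 was at 5.05 ± 0.212 CPM untreated, 72.3 ± 5.12 with TGFβ, 4.99 ± 0.738 with Pam3 and 46.1 ± 2.22 with the combination (SD, n = 3). The Ear genes are close paralogs, so the split of reads between them is uncertain. For the difference between the Pam3 responses, 3 of the 18 were called higher and 4 lower (10.3% and 5.67% of all genes), and the lowest, Ear1 at −0.63, was close to the −0.66 of Siglecf.

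Siglec1, the interferon-linked member, behaved differently: neither agent alone moved it past the threshold, and both together raised it. It lies on the minus strand of chromosome 2 from 130911140 to 130928685 (GRCm39), the only member outside chromosome 7. Siglec1 stood at 426.8, 408.9 and 435.6 CPM in the untreated libraries, at 371.9, 414.2 and 443.3 CPM with TGFβ and at 422.9, 417.1 and 450.6 CPM with Pam3. With both agents it reached 671.2, 643.5 and 758.0 CPM. The first 3 groups overlap one another and all 3 libraries given both agents lie above them.

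The Pam3 difference for Siglec1 without TGFβ was 0.02 on the log2 scale (95% confidence interval −0.11 to 0.15, adjusted p = 0.87), and the TGFβ difference without Pam3 was −0.05 (−0.18 to 0.08, adjusted p = 0.551). In TGFβ-treated cells Pam3 raised Siglec1 1.69-fold (log2 difference 0.75, SE 0.0631, adjusted p = 5.92e-10). In Pam3-treated cells TGFβ raised it 1.61-fold (log2 difference 0.68, SE 0.0631, adjusted p = 2.3e-09). The test of the difference between the Pam3 responses gave 0.73 (95% confidence interval 0.55 to 0.92, adjusted p = 1.23e-06).

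Set beside 20 interferon-stimulated genes, Siglec1 was the flatter readout on the log2 scale. Pam3 without TGFβ raised 19 of the 20 (9.62% of all genes were called higher), with a median log2 difference of 2.67 and the highest, 3.86, for the de-ISGylating protease Usp18; Ifi44 was not called. Siglec1, at 0.02, lay below all 20. Pam3 with TGFβ raised all 20 (20.4% of all genes), with a median of 5.64 and the highest, 7.07, for Ifit1, a sensor of foreign RNA ends. Siglec1, at 0.75, again lay below all 20. TGFβ without Pam3 lowered 10 of the 20 and raised 2, with a median of −0.79. Of all genes, 28.1% were called lower and 22.9% higher. Siglec1, at −0.05 and not called, lay above 16 of the 20.

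For the difference between the Pam3 responses, 19 of the 20 were called higher (10.3% of all genes) with a median of 2.45, and Siglec1 lay above 1 of them, Irf9 at 0.66. Mx1, an antiviral GTPase, was the extreme of the list, highest for this difference (4.29) and lowest for TGFβ without Pam3 (−3.23). Mx1 stood at 12.1 ± 2.28 CPM untreated, 1.26 ± 0.713 with TGFβ, 58.0 ± 9.42 with Pam3 and 121.2 ± 2.48 with the combination (SD, n = 3). For Ifit1 the same groups averaged 3.08 ± 0.875, 1.52 ± 0.462, 40.0 ± 6.34 and 206.4 ± 16.5 CPM. As an increment, Pam3 added 6.43 ± 13.0 CPM to Siglec1 without TGFβ and 281.1 ± 40.3 CPM with it (SE, n = 3 a group). The increment with TGFβ was larger than that of Mx1 or Ifit1, so the ranking depends on the scale. The other genes of the list were not compared in CPM. Relative to the untreated mean, the median gene of the list was 2.48 to 2.91 log2 units higher in the Pam3 libraries, where Siglec1 stood at 0, −0.02 and 0.09. With both agents the list's median reached 4.51 to 4.58 and Siglec1 0.6 to 0.84. With TGFβ alone the list's median lay at −0.84 to −0.37 and Siglec1 at −0.19 to 0.07. The list and Siglec1 thus share their highest group, while each agent alone separates them, Pam3 more widely than TGFβ.

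**Figure D2:**
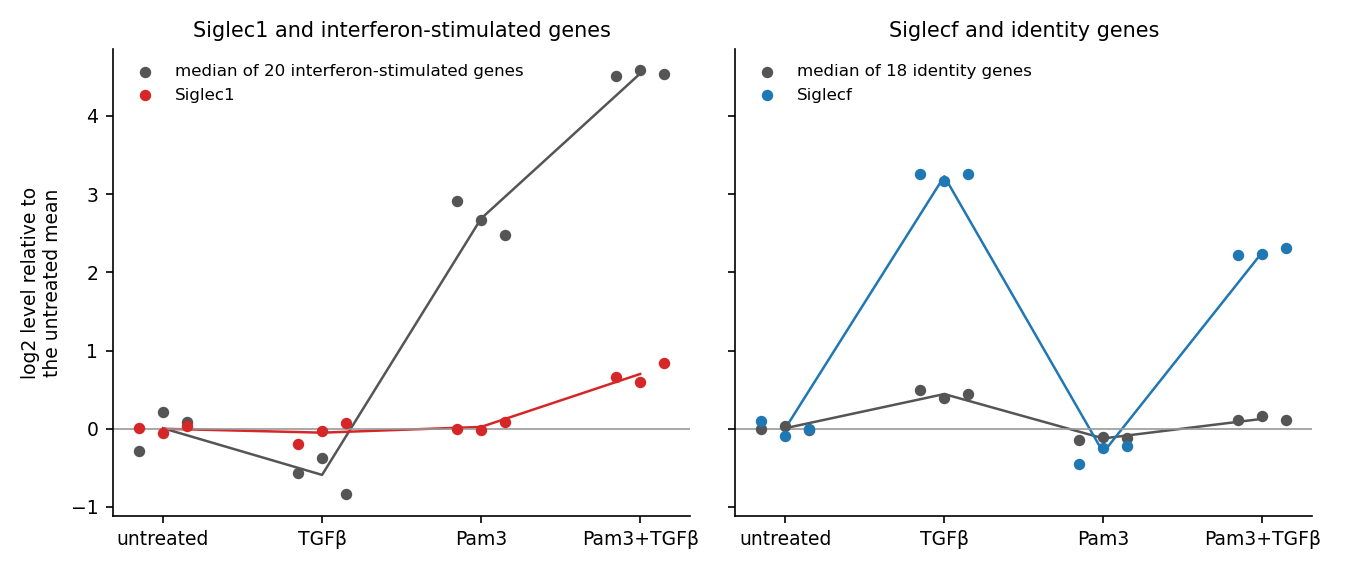
Log2 level relative to the untreated mean (vertical axis) in each of the 12 libraries, for Siglec1 beside the median of 20 interferon-stimulated genes and for Siglecf beside the median of 18 alveolar macrophage identity genes; lines join the group means. In the Pam3 libraries the interferon list lies at 2.48 to 2.91 while Siglec1 stays near 0.

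The ratio of Siglecf to Siglec1 reads within a library does not depend on how libraries are scaled. As log2 ratios, it was −3.64, −3.76 and −3.77 in the untreated libraries, −0.28, −0.52 and −0.54 with TGFβ, −4.17, −3.94 and −4.03 with Pam3 and −2.17, −2.08 and −2.25 with both agents. The groups did not overlap. As geometric means, there were 0.0758 Siglecf reads for each Siglec1 read in the untreated group, 0.735 with TGFβ, 0.0604 with Pam3 and 0.223 with both. These ratios are not corrected for gene length. Per kilobase of exon, Siglecf lay above Siglec1 with TGFβ, at 107.7 against 57.4 CPM per kb. TGFβ raised the log2 ratio by 2.58 on average (3.28 without Pam3 and 1.88 with it). Every library with TGFβ lay above every library without it at the same Pam3 state. Pam3 changed the log2 ratio by −1.02 (−0.33 without TGFβ and −1.72 with it). Both effects had p = 0.005 in a two-sided exact permutation test within strata, the smallest that the 400 assignments allow, and 0.01 after adjustment over the 2 tests. Within a single stratum, 3 libraries against 3 cannot give a p below 0.1, and each of the 4 gave that value. These effects follow from the levels of the genes given above and are not further support for them.

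**Figure D3:**
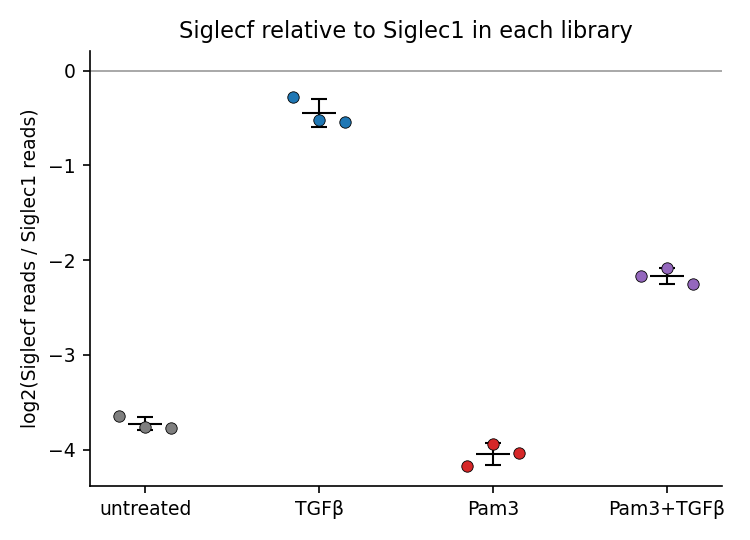
Log2 ratio of Siglecf to Siglec1 reads (vertical axis) in each library, by group, with the mean and SD. The ratio runs from about −4 with Pam3 to about −0.4 with TGFβ, and the libraries given both agents lie between, at −2.25 to −2.08.

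Siglece, which encodes an inhibitory Siglec of mouse neutrophils, monocytes and macrophages, was the only member called higher in all 4 comparisons of single agents. It lies on the minus strand of chromosome 7 from 43298405 to 43309607. Siglece stood at 32.5, 41.8 and 40.0 CPM in the untreated libraries, at 197.0, 192.9 and 193.2 CPM with TGFβ, at 109.2, 105.6 and 121.0 CPM with Pam3 and at 311.1, 314.4 and 302.7 CPM with both. The groups did not overlap, with Pam3 below TGFβ and both agents highest.

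TGFβ raised Siglece 5.1-fold without Pam3 (log2 difference 2.35, SE 0.0707, adjusted p = 6.38e-17) and 2.76-fold with it (1.47, SE 0.0673, adjusted p = 1.11e-13). Pam3 raised it 2.94-fold without TGFβ (1.55, SE 0.0697, adjusted p = 1.19e-12) and 1.59-fold with it (0.67, SE 0.0658, adjusted p = 3.88e-08). As fold changes, the Pam3 response was smaller in TGFβ-treated cells, by −0.88 on the log2 scale (95% confidence interval −1.08 to −0.69, adjusted p = 6.04e-07). As an increment in CPM the order was the opposite: Pam3 added 73.9 ± 5.45 CPM without TGFβ and 115.0 ± 3.72 CPM with it (SE, n = 3 a group). The direction of this difference for Siglece therefore depends on the scale, which was the case for no other well-expressed member. Exons of Siglece overlap those of Ceacam18, on the opposite strand, over 1639 bases; Ceacam18 had 11 to 166 counts per library, and the strand setting of the counting is not given in the sources used here.

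**Figure D4:**
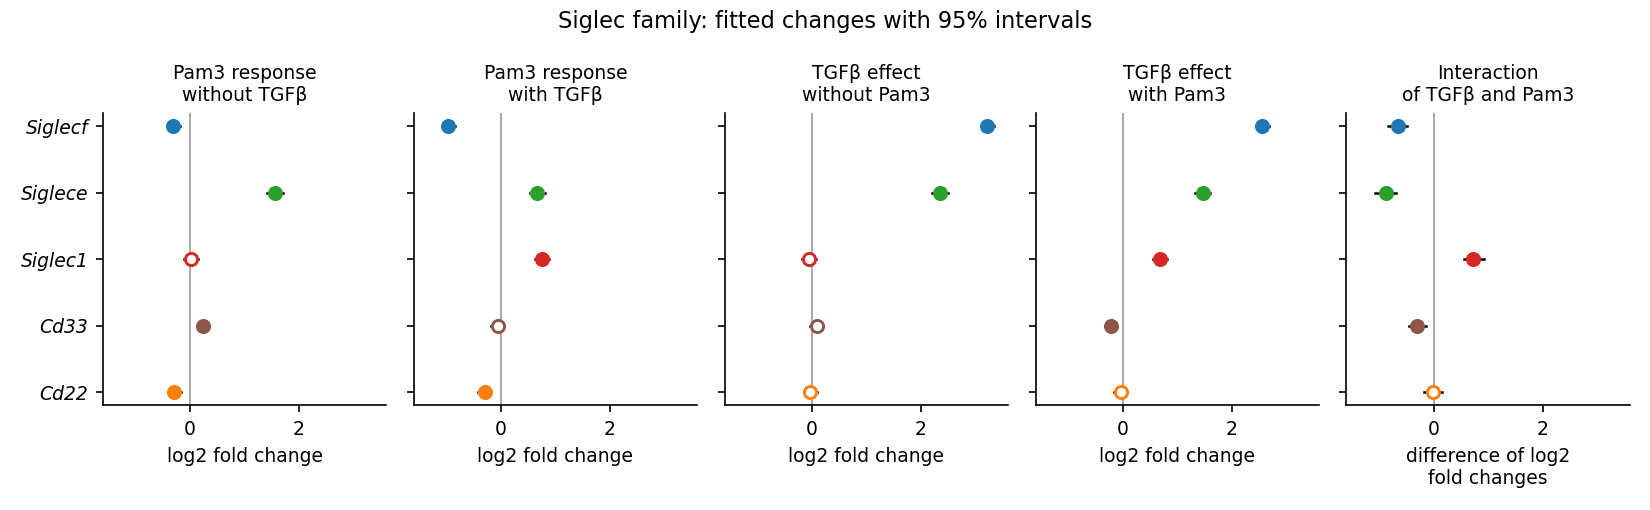
Log2 fold change with 95% confidence interval (horizontal axis) of the 5 well-expressed Siglecs for the Pam3 and TGFβ comparisons and, on the right, the difference between Pam3 responses; filled symbols were called and open symbols were not. Siglecf and Siglece lie on opposite sides of 0 for Pam3 and on the same side for TGFβ.

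Cd33 was abundant and changed little. Its product is the mouse counterpart of human CD33, an inhibitory receptor of myeloid cells, although the mouse tail lacks the classical inhibitory motif. Cd33 lies on the minus strand of chromosome 7 from 43173634 to 43193875. Its exons overlap those of a non-coding gene on the opposite strand over 152 bases. Cd33 stood at 297.3, 271.6 and 303.8 CPM in the untreated libraries, at 281.9, 321.5 and 322.4 CPM with TGFβ, at 334.6, 334.1 and 361.9 CPM with Pam3 and at 300.8, 280.1 and 305.5 CPM with both. All 3 Pam3 libraries lie above those of the other 3 groups, which overlap one another. Pam3 raised Cd33 without TGFβ (log2 difference 0.24, SE 0.0551, adjusted p = 0.00263), and the difference with TGFβ was −0.06 (95% confidence interval −0.18 to 0.05, adjusted p = 0.406). The test between these responses gave −0.3 (95% confidence interval −0.46 to −0.14, adjusted p = 0.00774). In Pam3-treated cells TGFβ lowered it (−0.22, SE 0.0551, adjusted p = 0.00214). Without Pam3 the TGFβ difference was 0.09 (adjusted p = 0.207), and it became 0.17 (adjusted p = 0.0199) when TGFβ replicate 1 was left out.

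Cd22 was lower with Pam3, by about the same factor with or without TGFβ. Best known as an inhibitory co-receptor of the B cell receptor, Cd22 was measured here in cells with B cell markers at or near 0, as given above. It lies on the minus strand of chromosome 7 from 30564827 to 30579767 and overlaps exons of 2 non-coding genes on the opposite strand. Cd22 stood at 53.4, 55.5 and 54.5 CPM in the untreated libraries, at 54.2, 52.9 and 52.8 CPM with TGFβ, at 46.4, 41.8 and 45.7 CPM with Pam3 and at 43.8, 42.7 and 43.5 CPM with both. Every Pam3-treated library lay below every library without Pam3. The fall was −0.29 on the log2 scale without TGFβ (SE 0.0578, adjusted p = 0.000696) and −0.3 with it (SE 0.0578, adjusted p = 0.000156). The difference between these responses was −0.01, with a 95% confidence interval from −0.18 to 0.16 (adjusted p = 0.954). The TGFβ differences were −0.03 (−0.15 to 0.09, adjusted p = 0.676) and −0.04 (−0.16 to 0.08, adjusted p = 0.575), without and with Pam3.

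Siglecg and Siglech were at the limit of detection. Siglecg, the relative of human Siglec-10, had 1, 5 and 10 counts in the untreated libraries, 7, 19 and 7 with TGFβ, 10, 15 and 5 with Pam3 and 17, 0 and 14 with both. Its groups overlap, no comparison was called, and the intervals are wide: the 95% confidence interval of the Pam3 difference without TGFβ ran from −0.9 to 2.77 on the log2 scale, and that of the TGFβ difference without Pam3 from −0.84 to 2.81. At such low counts, and with this spread between libraries, these intervals do not exclude a several-fold rise. Siglech had 2 counts in 1 Pam3 library and 0 in the 11 others. A count of 0 allows up to 3 counts, which corresponds to 0.0678 to 0.0953 CPM in these libraries; this limit covers counting error only.

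Per kilobase of annotated exon, which allows different genes to be set side by side, Siglec1 led in 3 of the 4 groups and Siglecf in the other. In untreated cells the order was Siglec1 at 59.3 ± 1.9 CPM per kb, Cd33 at 31.4 ± 1.84, Siglecf at 11.5 ± 0.754, Cd22 at 10.8 ± 0.2 and Siglece at 9.13 ± 1.18 (SD, n = 3), with the libraries of Siglecf and Cd22 overlapping. With TGFβ the order changed to Siglecf at 107.7 ± 3.58, Siglec1 at 57.4 ± 5.03, Siglece at 46.6 ± 0.548, Cd33 at 33.3 ± 2.5 and Cd22 at 10.6 CPM per kb. With Pam3 it was Siglec1 at 60.2 ± 2.5, Cd33 at 37.1 ± 1.72, Siglece at 26.8 ± 1.93, Siglecf at 9.33 ± 0.809 and Cd22 at 8.86 ± 0.488, the last pair again overlapping. Siglece thus rose from the lowest of the 5 in untreated cells to the second place with both agents, where the order was Siglec1 at 96.7 ± 8.36, Siglece at 74.2 ± 1.44, Siglecf at 55.1 ± 1.83, Cd33 at 31.9 ± 1.46 and Cd22 at 8.59 CPM per kb. Siglecg stayed between 0.0299 and 0.0587 CPM per kb as a group mean. These levels rest on the annotated length: with the longest transcript in place of all exons, Cd33 moved from 31.4 to 44.4 CPM per kb in untreated cells, and Siglecf and Cd22 exchanged places in the untreated and Pam3 groups. With TGFβ, Siglece and Cd33 then stood at 47.2 and 47.1 CPM per kb and could not be put in order. The length of Siglece, 4171 bases, also includes the 1639 exonic bases that overlap Ceacam18. If reads there went uncounted, the Siglece level per kb and its place in each order are too low. This was not tested. Bowtie2, named in the submitters' processing notes, does not split a read across an intron, and the longest transcripts of the members have from 4 exons (Siglecg) to 21 (Siglec1); its part in these levels was not tested.

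**Figure D5:**
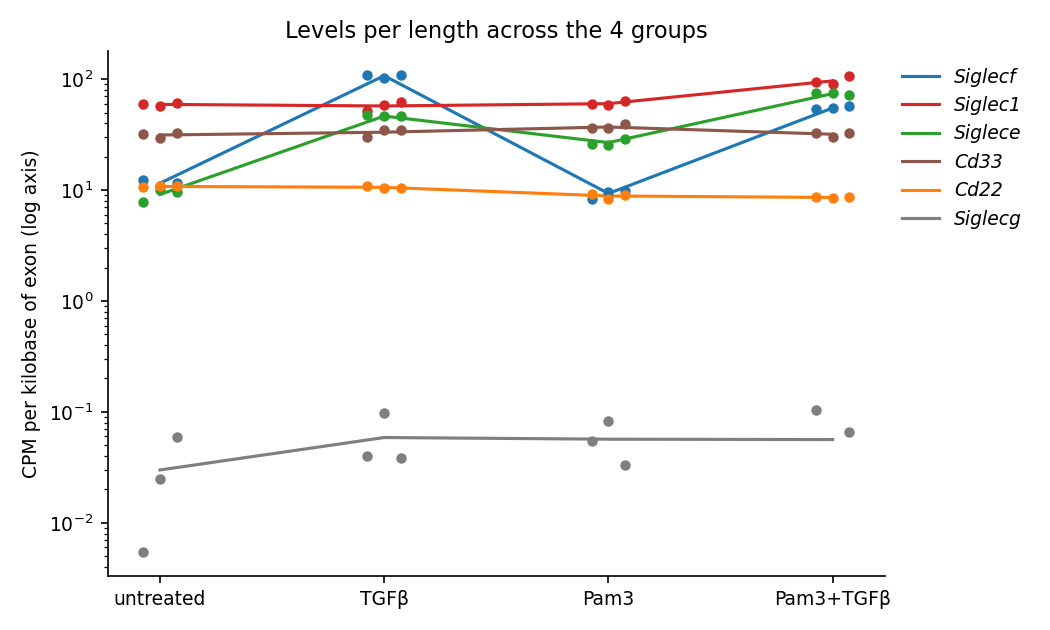
Level per kilobase of exon (CPM per kb, log axis) of the 6 tested Siglecs in each library of the 4 groups; lines join the group means, and the 1 library with no Siglecg count cannot be drawn on a log axis. Siglecf passes Siglec1 in the TGFβ group, at 107.7 against 57.4 CPM per kb.

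In the genome, Siglecf, Siglecg, Cd33 and Siglece lie within 308843 bases of chromosome 7 (GRCm39), yet Siglecf, Cd33 and Siglece had different patterns. Siglecg had too few counts for its pattern to be compared. Promoter sequence, taken from RefSeq on GRCm38.p6 as 250 bases before to 50 after the start site, was matched for 6 of the 7 members; Siglec1 was not matched. The bases before the start site are shown for the members that TGFβ raised and for Cd33, whose promoter shares a stretch with that of Siglecf. Capitals mark CAGAC, the core of a SMAD-binding element, and GAGGAAG, a PU.1-type motif, each on either strand, and a run of 16 bases common to Siglecf and Cd33.
Siglecf, chr7:43351091-43351340, plus strand: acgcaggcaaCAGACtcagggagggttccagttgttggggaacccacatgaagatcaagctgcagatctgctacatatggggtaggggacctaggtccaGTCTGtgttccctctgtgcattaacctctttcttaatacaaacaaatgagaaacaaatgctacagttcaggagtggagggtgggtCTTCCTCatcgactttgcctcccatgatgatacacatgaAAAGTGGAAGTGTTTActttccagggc
Siglece, chr7:43660162-43660411, minus strand: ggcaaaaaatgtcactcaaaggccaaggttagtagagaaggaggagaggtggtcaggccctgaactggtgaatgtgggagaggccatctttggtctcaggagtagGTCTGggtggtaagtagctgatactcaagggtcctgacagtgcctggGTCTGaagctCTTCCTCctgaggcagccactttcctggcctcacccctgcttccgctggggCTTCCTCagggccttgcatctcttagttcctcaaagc
Cd33, chr7:43533172-43533421, minus strand: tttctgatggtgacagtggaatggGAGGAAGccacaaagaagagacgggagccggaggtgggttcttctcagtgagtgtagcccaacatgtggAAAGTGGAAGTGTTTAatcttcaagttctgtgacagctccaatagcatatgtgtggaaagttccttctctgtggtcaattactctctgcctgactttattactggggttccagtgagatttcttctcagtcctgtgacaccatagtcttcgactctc

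CAGAC occurred 2 times each in the Siglecf and Siglece promoters, 3 times in that of Siglech and not in those of Cd33, Cd22 and Siglecg. At 49.6% of all 32851 promoters of the same length, it is a common motif, and a match is not a bound site. GAGGAAG occurred once for Siglecf, once for Cd33, 2 times for Siglece and at 1 of the 2 Siglecg starts, against 13.6% of all promoters. An interferon-stimulated response element, searched as GAAA, any 2 bases and GAAA again on both strands, was found in none of the matched member promoters and in 3.44% of all. The Siglecf and Cd33 promoters could be aligned over 80 columns with 62 identical bases (77.5%), and their best alignment scored 68 against at most 22 for any other pair of members. This alignment spans −30 to 49 around the Siglecf start and −160 to −81 before the Cd33 start. Most of its Siglecf side thus lies after the start site and is not shown above. Counted from the start site, the run of 16 bases spans −27 to −12 for Siglecf and −157 to −142 for Cd33, and it was found in no promoter of another gene in the table. In the order Siglecf, then Cd33, the run and its flanks read as follows.
Siglecf, chr7:43351307-43351336, plus strand: cacatgaAAAGTGGAAGTGTTTActttcca
Cd33, chr7:43533306-43533335, minus strand: catgtggAAAGTGGAAGTGTTTAatcttca

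The genes that make, attach and remove the Siglecs' ligand were also measured. Over all genes tested, the shares called were 9.62% higher and 8.66% lower for Pam3 without TGFβ, 20.4% and 18.1% for Pam3 with TGFβ, 22.9% and 28.1% for TGFβ without Pam3, 21.5% and 23.8% for TGFβ with Pam3, and 10.3% and 5.67% for the difference between Pam3 responses. The counts below are to be read against these shares, and the median log2 difference of all genes lay between −0.02 and 0 in each comparison. Of 20 sialyltransferases, the enzymes that add sialic acid to glycans, 12 had enough reads to test. TGFβ without Pam3 lowered 9 of the 12 and raised 1 (median log2 difference −0.95 against −0.01 for all genes), and TGFβ with Pam3 lowered 5 and raised 1. Pam3 raised 2 and lowered 2 without TGFβ, and raised 6 and lowered 1 with it. For the difference between these responses 6 of the 12 were called, all higher. St3gal1, which caps O-linked glycans, stood at 136.9 ± 3.4 CPM untreated, 80.6 ± 2.88 with TGFβ, 162.3 ± 9.69 with Pam3 and 161.3 ± 7.03 with the combination (SD, n = 3). TGFβ thus lowered it without Pam3 (−0.77, adjusted p = 2.71e-12), and with Pam3 the difference was −0.01 (adjusted p = 0.913). St8sia4, a polysialyltransferase, fell from 39.0 ± 7.05 to 11.9 ± 0.26 CPM with TGFβ and stood at 49.0 ± 3.12 with Pam3 and 23.0 ± 3.06 with both. For St3gal4 and St6galnac4 the Pam3 response was also called higher with TGFβ, by 0.55 and 0.65 on the log2 scale (adjusted p = 1.81e-05 and 0.000136).

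Of 6 genes that supply activated sialic acid, TGFβ lowered 3 without Pam3 and 4 with it, the latter 3 under 3 of the 5 other settings tried (medians −0.19 and −0.2; 28.1% and 23.8% of all genes were called lower), and none was called higher. Pam3 lowered 1 of the 6 without TGFβ, a count that was 2 under each of the 5 other settings tried, and 2 with TGFβ (medians −0.08 and −0.11; 8.66% and 18.1% of all genes). Cmah makes the glycolyl form of sialic acid that mouse CD22 prefers, and its RNA went from 11.9 ± 1.38 CPM untreated to 6.65 ± 0.841 with TGFβ, 6.63 ± 0.839 with Pam3 and 2.86 ± 0.53 with the combination (SD, n = 3). Its falls were called in all 4 comparisons, and the difference between the Pam3 responses was −0.37 (adjusted p = 0.272). Of 5 tested genes that remove or break down sialic acid, Pam3 lowered 2 without TGFβ (1 with no filter on low counts), and raised 2 and lowered 1 with it (medians −0.09 and −0.06). TGFβ lowered 2 of these 5 without Pam3, and raised 1 and lowered 1 with it (medians −0.13 and −0.12). Several of these counts, such as 1 of 5 lower against 18.1% of all genes, are near the share of all genes. Neu1, the lysosomal sialidase, was called in the difference between the Pam3 responses (0.23, adjusted p = 0.0235), a call that was lost with upper-quartile scaling. Of 4 genes for proteins that Siglecs bind, Cd52 fell from 235.6 ± 6.29 to 71.5 ± 4.84 CPM with TGFβ, while Cd24a, whose product is a ligand of Siglec-G, rose from 290.3 ± 7.69 to 433.7 ± 14.9 CPM (adjusted p = 5.79e-19 and 3.83e-11).

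Of 11 genes that act downstream of Siglecs, TGFβ without Pam3 lowered 9 and raised none (median −0.26; 28.1% of all genes were called lower), and TGFβ with Pam3 lowered 7 and raised 2 (median −0.18; 23.8% lower and 21.5% higher). Pam3 raised 5 and lowered none without TGFβ (median 0.14; 9.62% of all genes higher), and raised 6 and lowered 1 with it (median 0.32; 20.4% higher). Over the other settings the count called for TGFβ ran from 7 to 9 without Pam3 and from 8 to 9 with it, and that for Pam3 from 4 to 5 without TGFβ and from 7 to 9 with it. For the difference between the Pam3 responses 3 were called, all higher, among them the kinase gene Syk by 0.66 and the adaptor gene Fcer1g by 0.27 on the log2 scale (adjusted p = 3.65e-07 and 0.0138). Syk stood at 778.9 ± 34.8 CPM untreated, 557.6 ± 18.1 with TGFβ, 1122.2 ± 23.5 with Pam3 and 1268.6 ± 67.5 with both agents (SD, n = 3). Syk and Fcer1g act for many other receptors, so their levels are not specific to Siglecs. Of the 2 further Siglec genes, Siglec15 had too few reads to test. Mag, the myelin-associated Siglec gene beside Cd22, stood at 24.1 ± 1.81 CPM untreated, 18.2 ± 0.191 with TGFβ, 26.7 ± 0.827 with Pam3 and 21.3 ± 0.82 with both. TGFβ lowered Mag without Pam3 (−0.4, adjusted p = 0.000107) and with it (−0.33, adjusted p = 0.000927). Pam3 raised Mag in TGFβ-treated cells (0.22, adjusted p = 0.0257), a call that was lost with upper-quartile scaling, and without TGFβ the Pam3 difference was 0.15 (adjusted p = 0.195).

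The members' patterns over the 12 libraries differed. As Pearson correlations of log2 CPM, which describe 4 groups of libraries and carry no test, Siglecf was closest to Siglece (0.73) and farther from Siglec1 (0.29). Siglec1 and Siglece stood at 0.6, and Cd22 had a negative correlation with Siglec1 (−0.65) and Siglece (−0.56). Cd22 did not mirror them in each group: with Pam3 alone it fell while Siglec1 was not called. With TGFβ alone Siglece rose while Cd22 was not called. Among 9602 genes of at least 5 CPM, those most like Siglecf were Ptp4a1, Ski and Scd1 (0.997, 0.996 and 0.996). Most like Siglec1 were Sbno2, Rmdn3 and Phf8 (0.972, 0.966 and 0.959), and most like Siglece were Glrx, Gsap and Tapt1 (0.989, 0.984 and 0.983). For Cd22 they were Rpa1, Nat8l and Stk32c (0.967, 0.963 and 0.963), and for Cd33 Wdfy3, Zfp966 and Nfx1 (0.914, 0.85 and 0.836). A correlation of at least 0.9 was reached by 678 genes for Siglecf, 252 for Siglece, 113 for Siglec1, 69 for Cd22 and 1 for Cd33. A member that moves little against the spread between its libraries, such as Cd33, can reach 0.9 with few genes. The counts therefore do not show how widely a pattern was shared. For Siglecg the 3 closest were Zfp790, Angel2 and Scaf8, at 0.798 or less. With rank correlations none of the 3 genes named for Siglecf, Siglec1 or Cd22 stayed among the top 3.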

How the data were processed

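RNA sequencing of 12 stranded mRNA libraries was used. The authors deposited raw counts per gene; the submitters' processing notes name Bowtie2 2.4.1, featureCounts in Subread 2.0.0 and DESeq2 1.36.0, and the genome build and strand setting are not given in the sources used here. A deposited normalized table (unit signal) equals those counts divided by 1 constant per library and served only as a check. Genes with enough reads (filterByExpr, minimum count 10) were fitted in R 4.3.3 with edgeR 4.0.16 (TMM scaling, robust quasi-likelihood test, 4 group means, no covariate), and p-values were adjusted by Benjamini-Hochberg over all 14749 genes. The interaction subtracts the log2 Pam3 response of cells without TGFβ from that of TGFβ-treated cells. CPM use TMM-scaled library sizes; lengths and positions are from GENCODE M39 (GRCm39). The ratio test permuted libraries within strata. Promoter searches used Python 3.11.15 and Biopython 1.88. Named genes are all members, from each list at most 4 genes, by size of called interaction (or of another change where none was called), the extremes of 2 lists, and the 3 genes with the highest Pearson correlation to each member; a few genes that this rule selects are not reported here. The members, gene lists and tests were chosen with earlier results of these data known. The fit was tested on simulated data. Alternatives were DESeq2 1.42.0, other scalings and filters, a replicate block and leaving out each library.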

Additional observations from a re-analysis of the deposited data

Results flagged for a closer look

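Each of 4 members responded to Pam3 differently in cells with and without TGFβ, by the edgeR test of that difference (log2 response with TGFβ minus without, 3 libraries a group). For Siglecf the difference was −0.66: every Pam3 library lay below every matching control in both backgrounds, and the fall was larger with TGFβ. For Siglec1 it was 0.73, with a rise in the TGFβ-treated cells and no call in the others. For Siglece it was −0.88, with a rise in both backgrounds that was smaller as a fold change with TGFβ. For Cd33 it was −0.3, with a rise in the cells without TGFβ and no call in the others. These differences were called for 4 of the 6 members tested, against 15.9% of all genes.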

How the results depend on the processing

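The members' counts of calls (4, 4, 2, 4 and 4 for Pam3 without and with TGFβ, TGFβ without and with Pam3, and their interaction) were the same under DESeq2, the scalings, the filters and the replicate block, and leaving out 1 library moved only the count for TGFβ without Pam3, from 2 to 2 to 3 (Cd33, without TGFβ replicate 1). Siglecf ranged from −0.73 to −0.61 and Siglec1 from 0.64 to 0.77 for the interaction when single libraries were left out. The sign turned only for differences that were never called. For Siglec1 the Pam3 difference without TGFβ ranged from −0.01 to 0.04, with 0 without untreated replicate 2, and the TGFβ difference without Pam3 from −0.09 to 0.04. For Siglecg the Pam3 difference with TGFβ ranged from −0.8 to 0.49 and the TGFβ difference with Pam3 from −0.74 to 0.55 (0.35 without Pam3 replicate 2); for Cd22 the interaction ranged from −0.05 to 0.02 (0.01 without Pam3 replicate 3). As a difference of increments in CPM, an alternative chosen after seeing the data, the Siglece interaction was 41.2 CPM in place of −0.88 on the log2 scale, a reversal that follows from the scale. Upper-quartile scaling ended the Pam3 call for Mag. Pam3 without TGFβ lowered 2 in place of 1 sialic acid supply genes under each of the 5 other settings tried for the lists. Same-numbered libraries did not deviate together throughout (7 of 18 pairs correlated over 0.1; 5 of 12 libraries correlated best with their own number), although all pairs of number 3 were positive, from 0.033 to 0.3, so the replicate block is not taken as a pairing: it gave 2751 against 2697 calls for Pam3 without TGFβ, 2393 against 2352 for the interaction, and changed no member's call. Low counts, and for Siglecg the spread between libraries, limit Siglecg and Siglech, and the counts say nothing of protein.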
